A study of Homo sapiens with 2 samples.

Results

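NF-kB induced miRNAs were followed in FaDu (FadU in the labels), a squamous carcinoma line of the hypopharynx: miR-146a-5p, miR-146b-5p and miR-155-5p. They were chosen by name as miRNAs grouped as induced by the transcription factor NF-kB, whose activity these libraries do not measure. All 3 are among the 2038 mature miRNA names in both deposited tables. The study sequenced small RNA from spheres and from the parental culture, with 1 library per group, to find miRNAs of the sphere cells. Spheres, which the labels describe as sphere-derived cancer stem cells, grew in DMEM-F12 to which N2 Plus Supplement was added, along with EGF and recombinant bFGF at 10 ng/ml each. The parental medium was RPMI-1640 containing 10% FBS (serum), and both media held 1% penicillin and streptomycin. The groups share the line and carry no transgene or drug, so medium, serum and growth form changed together and cannot be told apart.

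NF-kB is held in the cytoplasm until signals from Toll-like receptors, the interleukin-1 receptor or tumour necrosis factor release it. Among the genes it then switches on is MIR146A, whose miRNA represses the signalling proteins IRAK1 and TRAF6 of the same pathway and so closes a negative feedback loop. miR-146b has the same seed, the bases that pair with targets. miR-155, made from the BIC transcript (MIR155HG), is induced in activated macrophages and lymphocytes and represses SOCS1 and INPP5D, which restrain cytokine signalling.

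The mature sequences are shown because the 2 miR-146 genes make almost the same molecule while miR-155 has a seed of its own. They are RefSeq's, read 5′ to 3′, with the seed (bases 2 to 8) in capitals.
miR-146a-5p: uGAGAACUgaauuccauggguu
miR-146b-5p: uGAGAACUgaauuccauaggcug
miR-155-5p: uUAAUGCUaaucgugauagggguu

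From the 5′ end, the first 17 bases of the miR-146 pair are identical, and the substitutions from miR-146a-5p to miR-146b-5p over the 22 bases compared are G18A and U21C. A read of 17 bases or fewer therefore cannot be given to one of the pair, and how the authors divided such reads is not given in the sources used here. The seed GAGAACU is shared by 3 RefSeq miRNAs. The remaining one, miR-7153-5p, is not among the names in the deposited tables, so nothing is known of it here. The seed UAAUGCU belongs to miR-155-5p alone among RefSeq's human miRNAs.

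The 3 genes lie on different chromosomes. Coordinates are those of RefSeq on GRCh38.p14 and not of hg19, the build named in the submitters' processing notes. miR-146a-5p is at chr5:160485372-160485393 on the plus strand, in exon 2 of 2 of the long non-coding RNA MIR3142HG in GENCODE 29. miR-155-5p is at chr21:25573983-25574006 on the plus strand, in exon 4 of 4 of MIR155HG. miR-146b-5p is at chr10:102436520-102436542 on the plus strand, inside no other annotated gene, and the nearest protein-coding gene, CUEDC2, lies 3851 bases away on the minus strand.

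RefSeq's 2 miR-146 hairpins are shown with both mature arms in capitals, because the opposite arms differ more than the 5p arms do and were counted apart.
MIR146A: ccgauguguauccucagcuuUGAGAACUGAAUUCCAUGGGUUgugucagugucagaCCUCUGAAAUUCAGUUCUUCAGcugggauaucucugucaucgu
MIR146B: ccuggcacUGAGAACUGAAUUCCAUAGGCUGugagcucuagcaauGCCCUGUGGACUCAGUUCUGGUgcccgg

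Each library is read on 2 scales. RPKM as deposited is per kilobase of mature miRNA and per 1000000 reads of the authors' total. Rescaled RPKM is the same value per 1000000 of its column sum, that is, a share of the miRNA signal. The sums were 5509071 RPKM in spheres and 26530004 RPKM in parental cells, so the same share is 4.82 times fewer RPKM in spheres. The commonest low value, 8.07 RPKM in spheres and 5.84 RPKM in parental cells, was taken as 1 read on 22 bases. That puts an estimated 682359 reads on miRNAs in spheres and 4542489 in parental cells. These are 12.1% of the reads behind the RPKM in spheres and 58.4% in parental cells. That difference moves with the groups and sets the 2 scales apart, and its part in the folds below was not tested. Intervals below are exact 95% intervals on estimated reads. Such intervals cover counting error alone, because copies made by PCR are not separate molecules. With 1 library per group there is no replicate check and no p-value.

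miR-146b-5p was higher in spheres. It had 3606 RPKM in the sphere library, against 2392 RPKM in the parental library. As rescaled RPKM it had 655 in spheres (interval 596 to 719), against 90.2 in parental cells (81.5 to 99.2). The intervals of the 2 libraries do not overlap on either scale. The ratio was 7.26-fold as a share of miRNA (6.35 to 8.34), but 1.51-fold as deposited (1.32 to 1.73), so it passed the 2-fold rule only as a share. In the order of all 2038 names it stood at rank 68 in spheres and at rank 128 in parental cells. These are bulk libraries, in which fewer cells of a type and less RNA per cell cannot be told apart.

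miR-155-5p was not at least 2-fold higher or lower as a share of miRNA. It had 544 rescaled RPKM in spheres (491 to 601), against 422 in parental cells (404 to 441), a ratio of 1.29 (1.15 to 1.44). As deposited it had 2996 RPKM in spheres, against 11195 RPKM in parental cells, and was 3.74 times lower (3.35 to 4.18). The direction thus turns with the scale. Its rank hardly differed, at 76 in spheres and 79 in parental cells.

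miR-146a-5p was close to the limit of detection. It had 70.0 RPKM in spheres, against 58.4 RPKM in parental cells, on about 8.67 reads in spheres and 10.0 in parental cells. Rescaled it had 12.7 in spheres (6.03 to 25.04), against 2.20 in parental cells (1.06 to 4.05). The ratio of shares was 5.77 with a wide interval (2.15 to 16.4), and the ratio as deposited was 1.20 (0.447 to 3.41), within which no direction was detectable at this depth. Its mean of 7.45 rescaled RPKM lies below the minimum of 10 used to call a miRNA measured, so it enters none of the counts of measured miRNAs. The log2 fold of its share was 2.29 with 0.5 added to each value and 1.30 with 5 added.

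**Figure D1:**
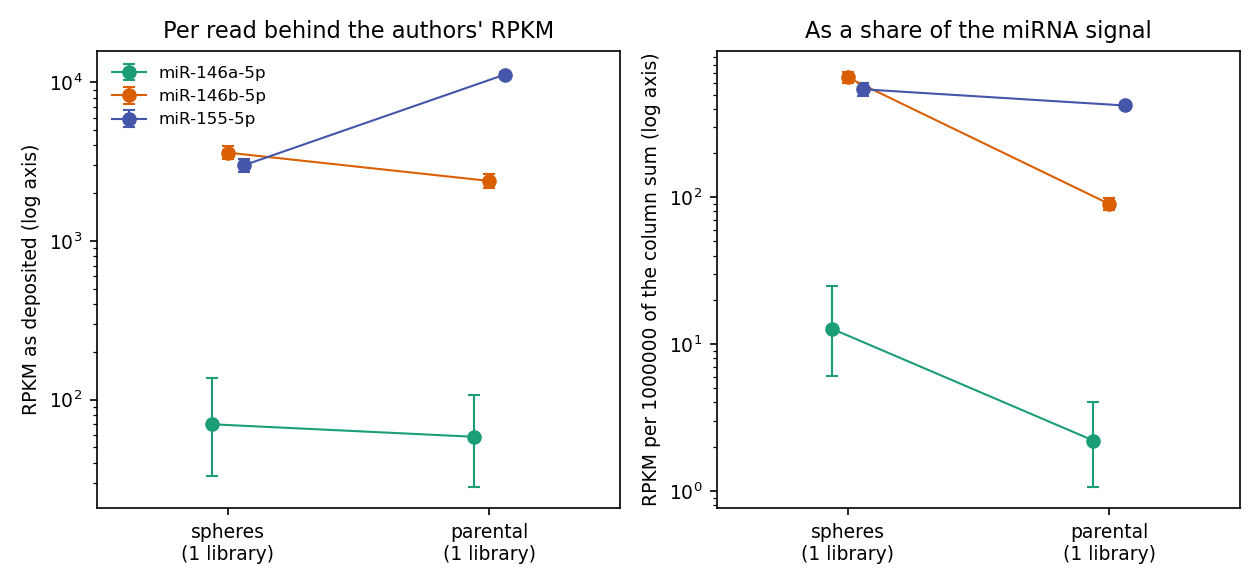
Levels of miR-146a-5p, miR-146b-5p and miR-155-5p in the sphere and parental libraries, as deposited RPKM (left panel, log axis) and per 1000000 of the column sum (right panel, log axis). Points are single libraries and bars are exact 95% counting intervals. miR-146b-5p and miR-155-5p lie close together in spheres (3606 and 2996 RPKM) and apart in parental cells (2392 and 11195 RPKM).

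Ratios between miRNAs within a library do not depend on how the libraries are scaled. miR-146b-5p stood at 1.20 times miR-155-5p in spheres (1.05 to 1.38), while in parental cells the ratio was 0.214 (0.191 to 0.237). The order of the 2 miRNAs by RPKM was thus opposite in the 2 libraries, with miR-155-5p 4.68 times above miR-146b-5p in the parental one. In spheres the order was narrow, with a ratio of 1.15 in estimated reads. Whether both sequences were captured equally was not tested, so an order by RPKM need not be one of abundance. Spheres over parental, the ratio of miR-146b-5p to miR-155-5p differed 5.63-fold, with a counting interval of 4.73 to 6.73.

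Within the miR-146 pair the balance was alike in both libraries as far as the few miR-146a-5p reads can show. In spheres, miR-146b-5p stood at 51.5 times miR-146a-5p (25.9 to 109). In parental cells it stood at 41.0 times (22.01 to 85.9). The change of 1.26-fold has an interval of 0.439 to 3.41, which leaves room for a change in either direction. miR-146b-5p made up 98.1% of the RPKM with this seed in spheres and 97.6% in parental cells. Nearly all of the miR-146 signal of FaDu was therefore listed under the MIR146B gene.

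The 5p arm dominated each hairpin. miR-146b-3p had 11.0 RPKM in spheres, against 30.8 RPKM in parental cells, or about 1.37 reads in spheres and 5.27 in parental cells. Its 5p arm was 327 times higher in spheres and 77.8 times higher in parental cells, a difference within counting error (a change of 4.20-fold, interval 0.607 to 259). miR-155-3p was listed at 0 in spheres and at 5.84 RPKM in parental cells, which is 1 read. miR-146a-3p was listed at 0 in both libraries, where a count of 0 allows up to 24.2 RPKM in spheres and 17.5 RPKM in parental cells (3 reads).

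A length check bears on the reads behind the 3 values. On 23 bases, and on none of the other lengths from 20 to 24, miR-155-5p came out at 388.0 reads in spheres and 2004.0 in parental cells, while RefSeq gives it 24 bases. Both members of the miR-146 pair were closest to simple fractions of a read on 22 bases, although RefSeq gives miR-146b-5p 23 bases. miR-146b-5p came out at 446.667 reads in spheres and 409.5 in parental cells, and miR-146a-5p at 8.667 and 10.0. The miR-146b-5p values are thus not whole reads in either library, and how they arose was not tested.

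The 269 measured miRNAs give the background: as a share of miRNA, 23.0% of them were 2-fold or more higher in spheres and 19.0% 2-fold or more lower. As deposited, 6.32% were higher and 79.6% lower. Of the 2 measured members, 1 was higher as a share (miR-146b-5p, log2 fold 2.85 of rescaled RPKM + 0.5) and none was lower. As deposited, none was higher and miR-155-5p was lower. The median log2 fold of all measured miRNAs was 0.02 as a share and -2.25 as deposited. Beside that deposited median, miR-155-5p had -1.90 and miR-146b-5p had 0.59.

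miR-146b-5p had a larger share fold than most measured miRNAs. Only 21 of the 269 had a higher one, against 100 for miR-155-5p. Of those 21, 14 have a name numbered above 1000, as have 44 of all measured miRNAs. With at least 100 estimated reads in both libraries there were 112 measured miRNAs, and 5 of the 21 were among them: miR-4792, miR-6087, miR-203a, miR-210 and miR-24-3p. With about 447 reads in spheres and 410 in parental cells, miR-146b-5p is thus one of the better counted miRNAs at this end of the range.

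**Figure D2:**
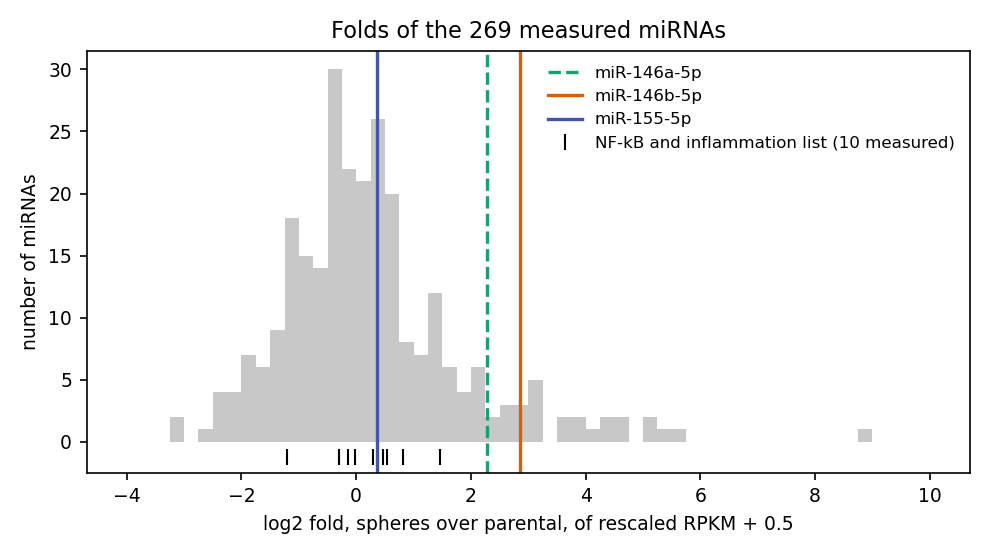
Histogram of the log2 fold, spheres over parental, of rescaled RPKM + 0.5 over the 269 measured miRNAs (x axis, log2; y axis, number of miRNAs), with lines at the 3 NF-kB induced miRNAs (dashed for miR-146a-5p, which is below the level filter) and ticks at the 10 measured miRNAs of the NF-kB and inflammation list. miR-155-5p (0.37) lies in the bulk, miR-146b-5p (2.85) in the upper tail, and miR-146a-5p at 2.29 (1.30 with 5 in place of 0.5 added).

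Among the measured miRNAs other than the members, those most like each member were those at the smallest distance over its 2 log2 levels. For miR-146b-5p the nearest was miR-210, which HIF1A induces in hypoxia, at a distance of 0.32 log2 units. miR-210 had 569 rescaled RPKM in spheres, against 75.5 in parental cells. miR-126-5p and miR-193b-3p followed at 1.11 and 1.23. For miR-155-5p the nearest were miR-29b-3p (0.03), which represses collagens, miR-130a-3p (0.08) and miR-27a-5p (0.26). For miR-146a-5p, itself below the level filter, they were miR-3648 (0.63), miR-139-5p (0.68) and miR-4532 (0.80), all on fewer than 16 estimated reads in either library. A miRNA at its parental level could pass that filter only through a higher sphere value. Their higher log2 folds of share (3.08 to 3.23, beside 2.29) therefore follow from the filter. Unmeasured miRNAs, such as miR-324-5p (11.6 rescaled RPKM in spheres, 2.54 in parental cells), were not searched. With only 2 libraries such closeness means a similar level and fold.

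Seeds give a view of the weight each family carries. RefSeq sequences matched 217 of the 269 measured names (80.7%), which hold 164 different seeds. Unmatched names were left out, so the ranks hold among the matched names only. By summed rescaled RPKM the miR-146 seed ranked 35 in spheres and 71 in parental cells. That sum is miR-146b-5p alone, because miR-146a-5p lies below the level filter. The miR-155 seed ranked 40 in spheres and 42 in parental cells. The 3 miRNAs together made up 0.121% of the miRNA signal in spheres and 0.0514% in parental cells.

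Other miRNAs tied to NF-kB and inflammation were read from a list of 13, of which 10 were measured. As a share, 1 was at least 2-fold higher, 1 was lower and 8 lay within 2-fold, beside 62 higher, 51 lower and 156 within 2-fold among all 269 measured miRNAs. The list median was a log2 fold of 0.14, beside 0.02 for all measured miRNAs. The higher one was miR-221-3p, reported to respond to NF-kB and AP-1 in carcinoma, with 9421 rescaled RPKM in spheres, against 3403 in parental cells (2.77-fold, 2.69 to 2.85), though its log2 fold was -0.80 as deposited. The lower one was let-7i-5p, which represses TLR4, with 14590 in spheres, against 33700 in parental cells (2.31 times lower, 2.26 to 2.36).

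The named miRNAs of the list within 2-fold as a share had the following log2 folds. miR-21-5p, induced by AP-1, STAT3 and NF-kB, had a log2 fold of 0.46. miR-181b-5p, which represses importin alpha 3 and so the nuclear entry of NF-kB in endothelium, had 0.54. miR-9-5p, induced by lipopolysaccharide and a repressor of NFKB1, had 0.30. miR-222-3p, from the same cluster as miR-221, had -0.30, miR-10a-5p, a repressor of NF-kB activation in endothelium, -0.31 and miR-125b-5p, a repressor of tumour necrosis factor, -0.14. As deposited, 9 of the 10 were at least 2-fold lower and none was higher, with a median of -2.13, which is near the 79.6% lower and the median of -2.25 over all measured miRNAs. miR-147b, miR-199a-5p and miR-223-3p were below the level counted as measured.

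**Figure D3:**
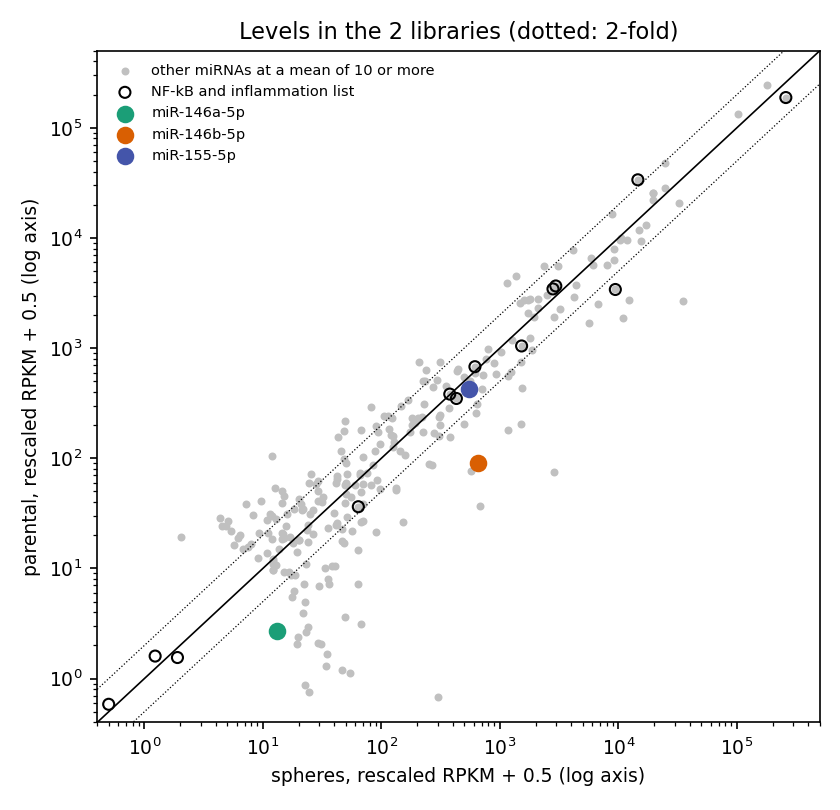
Rescaled RPKM + 0.5 in spheres (x axis, log) against parental cells (y axis, log) for the measured miRNAs (grey), the NF-kB and inflammation list (rings) and the 3 NF-kB induced miRNAs (colours). The solid line marks equal shares and the dotted lines 2-fold. miR-146b-5p (655 in spheres, 90.2 in parental cells) lies beyond the 2-fold line, and miR-155-5p (544 and 422) lies inside it.

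Markers of other cells were checked because miR-146a and miR-155 are abundant in leukocytes. Of 8 miRNAs of blood cells, 1 was measured, miR-486-5p, with 207 rescaled RPKM in spheres, against 741 in parental cells. The list mixes cell types, because miR-486-5p, miR-451a, miR-144-3p and miR-144-5p are typical of red blood cells rather than leukocytes. Its sums are therefore no measure of leukocytes alone. The whole list summed to 241 in spheres, against 745 in parental cells. Without miR-486-5p, left out after its value was seen, the other 7 summed to 34.1 rescaled RPKM in spheres, against 3.78 in parental cells, on about 23.3 reads in spheres and 17.2 in parental cells. As deposited they summed to 188 RPKM in spheres, against 100.2 RPKM in parental cells. The whole list went the other way on both scales, and as deposited summed to 1326 RPKM in spheres, against 19760 RPKM in parental cells. The sum of the 7 was higher in spheres on both scales. It rests on few reads and carries no interval, and its part in the result was not tested. Of these 7, miR-144-3p and miR-144-5p were at 0 in both libraries, miR-223-3p was at 0 in spheres, and miR-142-3p and miR-150-5p were at 0 in parental cells. miR-150-5p, abundant in lymphocytes, had 13.2 rescaled RPKM in spheres (9.0 reads), against 0 in parental cells. miR-142-5p had 12.3 in spheres (8.37 reads), against 3.25 in parental cells (14.8 reads). Both lie above the 4.40 rescaled RPKM that 3 reads are worth in spheres, while miR-142-3p, from the same hairpin as miR-142-5p, lies below it at 2.80.

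Epithelial markers matched the labelled origin of the line, with 5 of 5 measured and a sum of 83300 rescaled RPKM in spheres, against 37310 in parental cells. As deposited that sum was lower in spheres, at 458900 RPKM, against 989800 RPKM in parental cells. Most of the difference in shares came from miR-203a, with 35060 in spheres, against 2698 in parental cells. Without it, left out after its value was seen, the list summed to 48240 rescaled RPKM in spheres, against 34610 in parental cells, and miR-205-5p was lower in spheres, at 19460, against 21940. Of 5 miRNAs of stroma and endothelium, 2 were measured. That list summed to 144 rescaled RPKM in spheres, against 66.2 in parental cells, and was lower in spheres as deposited, at 793 RPKM, against 1756 RPKM in parental cells. Its part in the result was not tested. miR-145-5p and miR-214-3p were at 0 in parental cells and on only about 0.957 and 0.167 reads in spheres, fewer than 3 reads in either library.

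The plot of folds by scaling sets these results side by side. Under the 4 other scalings of the miRNA signal, miR-146b-5p kept log2 folds of 2.63 to 2.76 and miR-155-5p of 0.15 to 0.27. On the deposited scale they were 0.59 and -1.90. Each scaling multiplies a whole column by 1 factor, so the order of the miRNAs is fixed by construction and only the position relative to 0 and to 2-fold can differ.

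**Figure D4:**
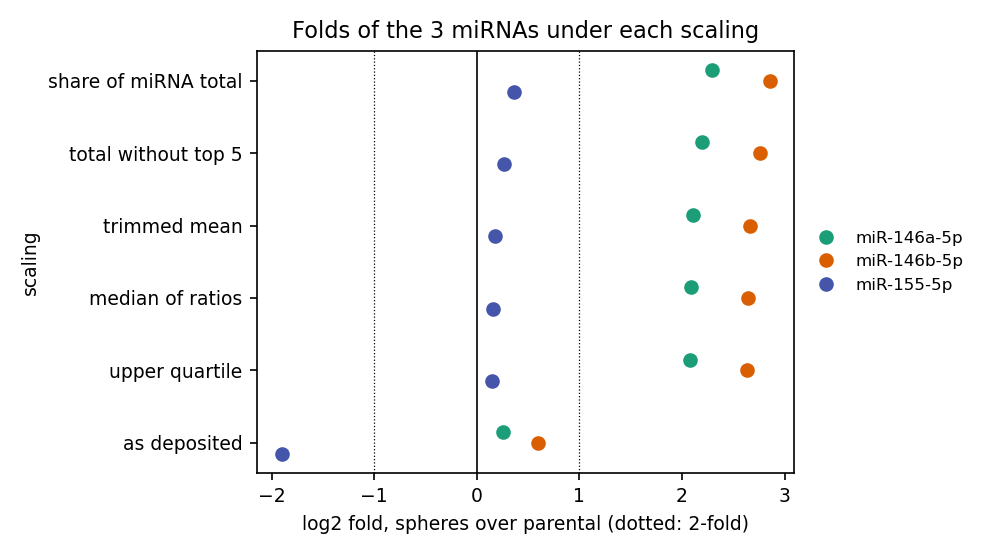
Log2 fold, spheres over parental (x axis), of the 3 NF-kB induced miRNAs under each scaling (y axis). The dotted lines mark 2-fold. On the deposited scale miR-155-5p (-1.90) lies left of 0 and miR-146b-5p (0.59) inside 2-fold; the order of the points is fixed by the construction of the scalings.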

How the data were processed

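Per the labels' protocols, 1 µg of total RNA per sample went into size-fractionated TruSeq small RNA libraries. Each deposited table holds 1 RPKM value per mature miRNA, made by the authors (file headers), and no raw counts. The submitters' processing notes name hg19. Not given in the sources used here are the aligner, the counting tool and how reads with several matches were counted.

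Columns were rescaled to 1000000. Folds compare log2(rescaled RPKM + 0.5), spheres minus parental, and so come out too small for low miRNAs. Measured means a mean of at least 10 rescaled RPKM. With 1 library per group no test was possible, so ratios carry exact (Clopper-Pearson) counting intervals on estimated reads, levels exact Poisson intervals, and changes of a ratio conditional odds ratio intervals. Reads were estimated on 22 bases, for miR-155-5p on 23. A value counted as a simple fraction of a read within 0.0005. Only the calling of folds and the coverage of the ratio interval at few reads were tested on simulated data. The read estimate, the length check and the other intervals were not.

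The named miRNAs were the 3 members, their opposite arms, the 3 nearest measured miRNAs of each, and of the NF-kB list those past 2-fold and 6 more by level. The miRNAs with a higher fold than miR-146b-5p were named after their values were seen. Members, lists and markers were chosen with earlier results of these data known. Python 3.11.15, numpy 2.4.6, pandas 2.3.3 and scipy 1.17.1 were used.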

Additional observations from a re-analysis of the deposited data

How the results depend on the processing

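RPKM as deposited changed the folds most: the log2 fold was 0.26 for miR-146a-5p, 0.59 for miR-146b-5p and -1.90 for miR-155-5p, with 17 measured miRNAs at least 2-fold higher and 214 lower, in place of 62 and 51. By construction, this scale keeps the 4.82-fold difference in column sums. Scaling to the upper quartile, the median of ratios or the trimmed mean moved all log2 folds by -0.22, -0.21 and -0.19, which gave 2.63, 2.65 and 2.66 for miR-146b-5p and 0.15, 0.16 and 0.17 for miR-155-5p. These 3 scalings put both miRNAs below the counting intervals of their main folds, which therefore cover no scaling error. The total without the 5 most abundant miRNAs of either library moved them by -0.10. Without the level filter the counts were 193 higher and 180 lower, and at a mean of at least 100 they were 23 and 18. In all, 41 of 56 alternative values stayed within their counting interval or within 1.5 times the count. These include both balances (miR-146b-5p over miR-146a-5p and over miR-155-5p) with other lengths or summed arms, which by construction could hardly move them. Also included are all miR-146a-5p folds other than the deposited one, whose interval is wide (2.15 to 16.4 as a ratio of shares). The tally is therefore no measure of robustness. The balance with miR-155-5p and a total without miRNAs numbered above 1000 were added after seeing the data. With 5 added in place of 0.5, miR-146a-5p was at 1.30. Its few reads limit every statement on it. No paired analysis was possible because each group is a single library, and no replicate could be left out.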
